A study of Homo sapiens with 8 samples.

Results

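The transcripts described here are long RNAs whose gene names mark them as hosts of smaller RNAs. Genes named SNHG followed by a number, with GAS5 and ZFAS1, are hosts of small nucleolar RNAs (snoRNAs). Genes named MIR...HG, with DLEU2, are hosts of microRNAs. They were chosen by name alone, with the condition that a gene had at least 10 counts summed over the 8 libraries. Of 96 matching names among 60622 gene lines, 68 met the minimum, namely 28 snoRNA hosts and 40 microRNA hosts. The other 28 did not, and 13 of these had no count in any library. MIR181A1HG with 10 counts and MIR3976HG with 12 lay just inside the minimum, and SNHG22 and MIR1302-2HG with 9 each lay just outside it. Small RNA positions from GENCODE v29 and RefSeq (GRCh38) were matched to the host boundaries of GENCODE v29. Within these, 27 of the 28 snoRNA hosts held a snoRNA or a related Cajal body RNA. Of the 40 microRNA hosts, 36 held a microRNA hairpin. The exceptions were SNHG27, MIR2052HG, MIR3150BHG, MIR378D2HG and MIRLET7A1HG. For MIRLET7A1HG the RefSeq start window (chr9:94166238-94166277) lies upstream of the GENCODE v29 model, which begins at 94176458. The stretch between them was not searched. In GENCODE v29 the identifiers of SNHG32 and MIR1915HG carry the names C6orf48 and CASC10 and are typed as protein coding.

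RNA came from 2 human prostate cancer cell lines. LNCaP, derived from a metastasis in a lymph node, responds to androgen; PC3, derived from one in bone, grows without it. The 4 groups were LNCaP control, LNCaP with miR-375 overexpressed, PC3 control and PC3 with miR-375 overexpressed, with 2 libraries in each. LNCaP was grown in 10% and PC3 in 20% serum, so that line and serum share cannot be told apart. The sources used here do not give the method or duration of overexpression or the nature of the control. They name no separate cultures either. The error behind each p-value is the spread between the 2 libraries of a group, estimated jointly over the 4 groups and across genes. It could be purely technical. The design asks how genes respond to miR-375 in each line and, from the same libraries, whether the responses differ.

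Poly(A) libraries held between 33973861 and 41890528 counts. Host transcripts took from 0.189% to 0.195% of the counts in the LNCaP libraries and from 0.0771% to 0.0827% in the PC3 libraries. The row of MIR375 had 0 counts in all 8 libraries, which by counting error allows up to 3 counts in each. Poly(A) selection does not capture mature microRNAs, so that row says nothing of the labels or of how far miR-375 was raised. Line markers matched the labels: KLK3, the gene of prostate-specific antigen, averaged 2785 CPM in the LNCaP controls and 0 in both PC3 groups, and FOSL1 averaged 0.930 and 722 CPM in the LNCaP and PC3 controls. The leukocyte markers PTPRC and CD3E and the endothelial marker CDH5 stayed under 0.230 CPM in every group. Other markers of stromal cells were present. Their means differed between the PC3 groups for PECAM1, COL1A1 and PDGFRB and little for COL1A2, and these differences were not tested. The endothelial marker PECAM1 averaged 45.1 CPM in the PC3 controls and 32.3 with miR-375. The fibroblast marker COL1A1 averaged 139 and 373 CPM, PDGFRB 0.738 and 2.28, and COL1A2 0.588 and 0.618. In LNCaP, COL1A1 averaged 37.6 and 39.9 CPM, COL1A2 4.08 and 4.02, PDGFRB 1.17 and 0.790, and PECAM1 0.205 and 0.221. Their part in the results below was not tested.

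A snoRNA host is spliced in the nucleus, and its snoRNAs are trimmed out of the excised introns. Box C/D snoRNAs guide ribose methylation and box H/ACA snoRNAs guide pseudouridylation, chiefly of ribosomal RNA. The remaining spliced RNA carries short open reading frames, and several such hosts, GAS5 among them, are known to be degraded by nonsense-mediated decay when they are translated. Many begin with a run of pyrimidines, as ribosomal protein mRNAs do. A microRNA host is cut in the nucleus by the Microprocessor, which releases hairpins from its introns or exons. The level of a spliced host therefore does not measure the snoRNA or the mature microRNA made from it.

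Hosts on different chromosomes carry microRNAs with the same seed, bases 2 to 8 of the mature strand, which is the part that pairs with target messages. The sequences below, from RefSeq (GRCh38.p14), are those of miR-375, of microRNAs that share a seed with one from the same or another host, and of 4 more whose hosts changed with miR-375 (miR-210, miR-22, miR-193b and miR-4453); the seed is in capitals. They are a selection, not all microRNAs of the hosts described.
miR-375-3p: uUUGUUCGuucggcucgcguga
let-7a-5p: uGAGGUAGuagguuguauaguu
let-7b-5p: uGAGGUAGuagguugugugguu
let-7c-5p: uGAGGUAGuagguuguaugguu
miR-4458: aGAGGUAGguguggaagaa
miR-4500: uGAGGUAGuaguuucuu
miR-100-5p: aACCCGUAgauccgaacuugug
miR-99a-5p: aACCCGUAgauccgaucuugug
miR-125b-5p: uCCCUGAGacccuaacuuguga
miR-15a-5p: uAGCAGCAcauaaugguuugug
miR-16-5p: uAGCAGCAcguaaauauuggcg
miR-195-5p: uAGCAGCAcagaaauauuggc
miR-497-5p: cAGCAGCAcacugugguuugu
miR-221-3p: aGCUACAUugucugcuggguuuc
miR-222-3p: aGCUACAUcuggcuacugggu
miR-210-3p: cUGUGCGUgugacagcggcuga
miR-22-3p: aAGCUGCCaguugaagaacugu
miR-193b-3p: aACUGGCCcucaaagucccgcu
miR-4453: gAGCUUGGucuguagcgguu

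Within the host boundaries of GENCODE v29, the let-7 seed GAGGUAG occurred in 5 hosts. These included MIR100HG on chromosome 11 (let-7a), MIRLET7BHG on chromosome 22 (let-7a and let-7b) and MIR99AHG on chromosome 21 (let-7c). The others were MIR4458HG on chromosome 5 and MIR4500HG on chromosome 13. MIR100HG and MIR99AHG are paralogous clusters that also share the seeds ACCCGUA (miR-100 and miR-99a) and CCCUGAG (miR-125b). The mature strand of miR-100-5p lies in an intron of MIR100HG (chr11:122152275-122152296, minus strand) and that of miR-99a-5p in an intron of MIR99AHG (chr21:16539101-16539122, plus strand). DLEU2 (miR-15a and miR-16) and MIR497HG (miR-195 and miR-497) share the seed AGCAGCA, and both microRNAs of MIR222HG, miR-221 and miR-222, carry GCUACAU.

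Each level is a CPM value, the share of a gene in its library's counts multiplied by 1e6, with library sizes corrected for composition by TMM. Values are printed for library 1 and then library 2 of a group. Changes are log2 fold changes ± SE from edgeR's quasi-likelihood test, with p-values adjusted by Benjamini-Hochberg over all 21066 genes tested, and the words rose, fell and differed are used where the adjusted p was under 0.05. Of the 68 members, 63 passed the filter on low counts. MIR4422HG, MIR181A1HG, MIR583HG, MIR378D2HG and MIR3976HG did not, with between 10 and 22 counts over all libraries.

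Most host transcripts differed between the lines before miR-375 was raised. Of the 63 tested members, 58 differed between LNCaP control and PC3 control (92.1%), against 80.4% of all genes tested. Higher in LNCaP were 39 and higher in PC3 were 19; over all genes the shares were 41.2% and 39.2%. The median log2 difference (LNCaP minus PC3) was 0.98 over the members and 0.07 over all genes. The direction went mostly one way in snoRNA hosts, with 22 higher in LNCaP and 4 in PC3 of 28, and was mixed in microRNA hosts, with 17 and 15 of 35. Total-count scaling left the split of 39 and 19 as it was.

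SNHG29, host of SNORD49A, SNORD49B and SNORD65, was the most abundant member in LNCaP, at 574 and 568 CPM in the controls against 67.0 and 65.3 in PC3 (log2 difference 3.11 ± 0.04, adjusted p = 2.02e-38). GAS5, a growth arrest-specific transcript that hosts a series of box C/D snoRNAs, stood at 251 and 242 against 33.2 and 34.3 CPM (2.87 ± 0.05, adjusted p = 3.47e-35). SNHG3, host of SNORA73A and SNORA73B, stood at 133 and 122 against 9.03 and 7.81 CPM (3.92 ± 0.07). These 3 were several-fold higher in both LNCaP controls than in either PC3 control. Levels were also scaled per kilobase of annotated exon, merged over all GENCODE v29 transcripts of a gene. On that scale SNHG29 led the LNCaP controls at 152 CPM per kb, followed by SNHG8 (84.7), SNHG19 (79.8) and GAS5 (68.0). In the PC3 controls the order was SNHG6 (29.2), SNHG16 (22.6), SNHG32 (19.7) and SNHG29 (17.6 CPM per kb). The merged length was 3631 bases over 29 transcripts for GAS5 and 342 bases over 1 for SNHG19. Both orders therefore depend on which transcripts are annotated. SNHG16, host of SNORD1A, SNORD1B and SNORD1C, was among the 4 snoRNA hosts higher in PC3, at 122 and 120.3 CPM against 70.1 and 73.3 in LNCaP (−0.76 ± 0.05). SNHG18, host of SNORD123, was at 23.9 and 22.6 CPM in the PC3 controls and had 0 counts in one LNCaP control and 0.0573 CPM in the other. SNHG26 (−1.35) and SNHG11 (−0.30) were the other two.

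Among microRNA hosts the paralogous pair divided by line. MIR100HG was at 77.76 and 75.04 CPM in the PC3 controls and 0.181 and 0.115 in the LNCaP controls (log2 difference −8.99 ± 0.15, adjusted p = 4.77e-35). MIR99AHG was at 22.6 and 23.5 CPM in the LNCaP controls and 0.150 and 0 in the PC3 controls (8.18 ± 0.29, adjusted p = 1.09e-24). The groups did not overlap in either gene, and the directions were opposite although both carry the seeds of let-7, miR-100 and miR-125b. Of the other let-7 seed hosts, MIR4458HG was at 27.5 and 25.7 CPM in the LNCaP controls and 0 in both PC3 controls, at least 349-fold higher when the PC3 group is set to a floor of 3 counts per library. MIR4500HG was at 1.05 and 0.648 CPM in the PC3 controls and 0 in both LNCaP controls, at least 9.61-fold higher. MIRLET7BHG was present in both lines, at 8.82 and 7.67 CPM in LNCaP and 5.59 and 4.28 in PC3 (0.74 ± 0.18).

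Further microRNA hosts were near the floor in one line. In LNCaP, MIR646HG (6.25 and 5.24 CPM) and MIR200CHG (1.99 and 1.80 CPM), host of the epithelial microRNAs miR-200c and miR-141, had counts while both PC3 controls were at 0, which gives at least 75.3-fold and 24.9-fold higher levels. MIR497HG and MIR9-3HG were also at 0 in PC3, at bounds of 7.16-fold and 4.21-fold. In PC3, MIR4435-2HG (39.5 and 41.8 CPM against 0.423 and 0.200), MIR3142HG, host of miR-146a (14.9 and 12.9 against 0.121 and 0.0573), and MIR31HG, host of miR-31 (9.95 and 11.2 against 0 and 0.0573), were the higher ones. MIR3681HG and MIR1-1HG were at 0 in the LNCaP controls and at least 18.8-fold and 8.59-fold higher in PC3. The tested members without a called difference between the controls were SNHG31, SNHG25, MIR2052HG, MIR3150BHG and MIR181A2HG.

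**Figure D1:**
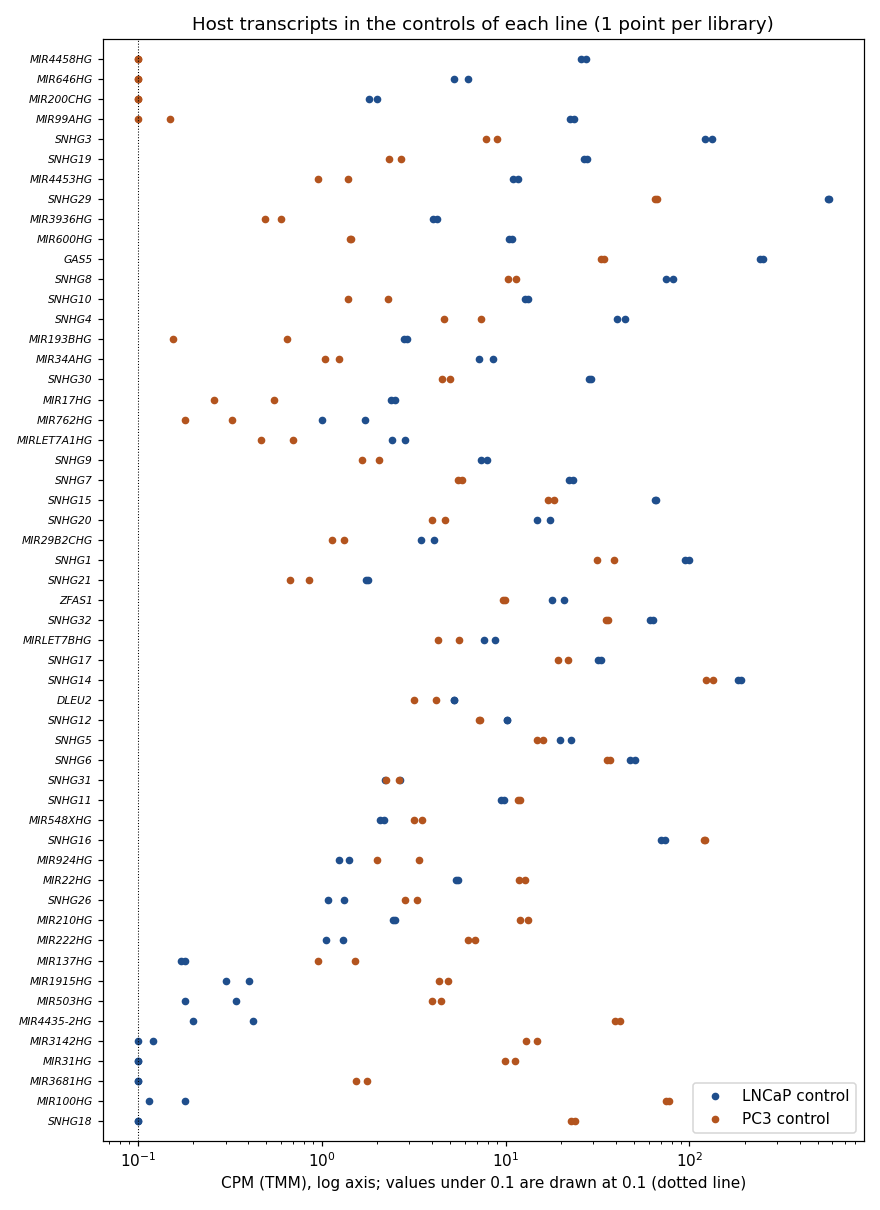
Each row is a tested host transcript with a mean of at least 1 CPM in the controls of either line (54 members), ordered by the fitted log2 difference; each point is 1 control library, on a log axis of CPM, and values under 0.1 are drawn at 0.1. SNHG29, GAS5 and SNHG3 lie far to the right in LNCaP (blue), whereas MIR100HG and SNHG18 are among those higher in PC3 (orange), with values of 75.04 to 77.76 and 22.6 to 23.9 CPM.

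With miR-375, 15 of the 63 tested members changed in LNCaP (23.8%), against 32.6% of all genes tested, and 27 changed in PC3 (42.9%), against 43.0% of all genes. In LNCaP 6 rose and 9 fell, with 13.9% of all genes rising and 18.7% falling, and in PC3 14 rose and 13 fell, with 22.2% and 20.8%. Without LNCaP control library 2 the LNCaP count was 7, and without LNCaP miR-375 library 1 it was 9. The median log2 fold change over the members was 0 in LNCaP and 0.07 in PC3, beside 0 and 0.02 over all genes. Scaling to total counts moved the median of all genes in LNCaP by 0.12 and turned the split into 9 that rose and 3 that fell, so the excess of falls in LNCaP depends on the scaling. The comparisons within a line do not share libraries.

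Among the snoRNA hosts, 1 rose and 7 fell in LNCaP of 28, and 5 rose and 5 fell in PC3. Total-count scaling gave 4 and 2 in LNCaP and 8 and 5 in PC3, and their median in LNCaP went from −0.04 to 0.08. The largest fall in LNCaP was that of SNHG1, host of SNORD22 and SNORD25 to SNORD31. Its levels were 99.95 and 94.39 CPM in the controls and 50.5 and 59.1 with miR-375, a log2 fold change of −0.83 ± 0.09 (adjusted p = 4.05e-07). In PC3 it stood at 39.0 and 31.5 against 27.6 and 32.7 CPM (−0.23 ± 0.10, adjusted p = 0.0709), where the libraries overlapped. The difference between the lines was itself past the threshold (−0.60 ± 0.13, adjusted p = 0.00193). GAS5 went from 251 and 242 to 199.7 and 194 CPM in LNCaP (−0.33 ± 0.04, adjusted p = 3.68e-08) and from 33.2 and 34.3 to 31.4 and 31.0 in PC3 (−0.11 ± 0.05, adjusted p = 0.0881). Every GAS5 library with miR-375 lay below the controls of its line. The SNHG1 and GAS5 falls in LNCaP stayed past the threshold under all 15 alternatives.

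SNHG16 fell in LNCaP from 70.1 and 73.3 to 60.8 and 60.9 CPM (−0.24 ± 0.05, adjusted p = 0.000219). In PC3 it was 122 and 120.3 CPM in the controls and 127 and 129 with miR-375 (0.08 ± 0.05, adjusted p = 0.149). The lines differed (−0.32 ± 0.07, adjusted p = 0.000338). SNHG14, a long transcript from the imprinted region of chromosome 15 that hosts the SNORD115 and SNORD116 clusters, was the snoRNA host that fell in both lines. It went from 184 and 191 to 158 and 166 CPM in LNCaP (−0.21 ± 0.04, adjusted p = 0.000168) and from 134 and 123 to 101 and 105 in PC3 (−0.32 ± 0.05, adjusted p = 2.49e-07). Neither line had overlapping libraries. Smaller falls in LNCaP were those of SNHG12 (−0.49 ± 0.15), SNHG17 (−0.28 ± 0.10) and SNHG15 (−0.20 ± 0.07). These 3, with SNHG14 and SNHG16, were no longer called in LNCaP with total-count scaling, with adjusted p from 0.0672 (SNHG12) to 0.416 (SNHG15). DESeq2 did not call SNHG12 (0.0695), SNHG17 (0.131) or SNHG15 (0.166) there. Without LNCaP control library 2 none of the 5 was called in LNCaP (0.0505 to 0.264), and without LNCaP miR-375 library 1 only SNHG16 of them was.

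SNHG19, host of SNORD60, moved in opposite directions. It rose in LNCaP from 26.7 and 27.8 to 32.5 and 35.8 CPM (0.32 ± 0.11, adjusted p = 0.0160) and fell in PC3 from 2.69 and 2.33 to 1.21 and 1.83 (−0.73 ± 0.20, adjusted p = 0.00267). The difference between the lines was 1.05 ± 0.22 (adjusted p = 0.000381). Its LNCaP call ended without LNCaP control library 1 (adjusted p = 0.0615) or LNCaP miR-375 library 2 (0.117), and its PC3 call without PC3 miR-375 library 1 (0.108).

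In PC3 the largest changes of snoRNA hosts were a fall of SNHG9 and a rise of SNHG30. SNHG9, host of SNORA78, went from 2.05 and 1.66 to 0.762 and 0.664 CPM (−1.38 ± 0.28, adjusted p = 9.41e-05) and in LNCaP was 7.91 and 7.39 against 7.12 and 8.72 (0.05 ± 0.19). SNHG30, host of SNORD7, went from 4.99 and 4.51 to 8.28 and 9.42 CPM (0.90 ± 0.12, adjusted p = 1.69e-07) and in LNCaP was 29.1 and 28.5 against 29.8 and 29.3 (0.04 ± 0.10). Both separated the PC3 libraries cleanly, and both differed between the lines (1.43 ± 0.34, adjusted p = 0.00129, and −0.86 ± 0.16, adjusted p = 5.25e-05). SNHG18 rose in PC3 from 23.9 and 22.6 to 34.6 and 34.9 CPM (0.58 ± 0.11, adjusted p = 5.97e-05). SNHG20, which holds the Cajal body RNA SCARNA16, went from 4.72 and 3.97 to 5.14 and 7.14 CPM (0.50 ± 0.16, adjusted p = 0.0103). That SNHG20 call ended without PC3 control library 2 (0.124) or PC3 miR-375 library 2 (0.346).

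Smaller changes in PC3 were those of SNHG32, SNHG6 and SNHG3. SNHG32, host of SNORD48 and SNORD52, fell in PC3 from 35.9 and 35.0 to 30.9 and 27.1 CPM (−0.29 ± 0.07, adjusted p = 0.000732) and was 63.8 and 61.1 against 63.1 and 66.5 in LNCaP. SNHG6, host of SNORD87, fell from 37.2 and 35.7 to 29.6 and 31.6 CPM in PC3 (−0.25 ± 0.07, adjusted p = 0.00330) and was 50.6 and 47.6 against 48.5 and 52.3 in LNCaP. SNHG3 rose in PC3 from 9.03 and 7.81 to 10.6 and 10.1 CPM (0.30 ± 0.09, adjusted p = 0.00685) and was 133 and 122 against 121 and 123 in LNCaP. With limma-voom (adjusted p = 0.0859) and with each line fitted alone (0.0904), SNHG3 was not called in PC3. These 3 calls each ended without 1 library, SNHG32 without PC3 miR-375 library 2 (0.0527), SNHG6 without PC3 miR-375 library 1 (0.0625) and SNHG3 without that library (0.0648) or PC3 control library 2 (0.180). The 3 genes differed between the lines, as did SNHG7, which hosts SNORA17A and SNORA17B. SNHG7 was 23.4 and 22.2 against 18.75 and 19.04 CPM in LNCaP (−0.27 ± 0.11, adjusted p = 0.0574) and 5.51 and 5.81 against 7.28 and 6.31 in PC3 (0.26 ± 0.13, adjusted p = 0.112), so neither change passed alone while their difference did (−0.53 ± 0.17, adjusted p = 0.0185). SNHG31 (0.63 ± 0.25) also rose in PC3, a call that ended without any of 6 libraries, 3 of them LNCaP libraries that share only the estimate of spread. That call was also lost with DESeq2 (adjusted p = 0.137), no low-count filter (0.0741) and the replicate block (0.0539).

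The most abundant member in LNCaP did not change by the test. SNHG29 was at 574 and 568 CPM in the LNCaP controls and 571 and 566 with miR-375 (−0.01 ± 0.04, adjusted p = 0.942), and in PC3 at 67.0 and 65.3 against 66.1 and 61.3 (−0.06 ± 0.04, adjusted p = 0.320). ZFAS1, host of the SNORD12 family, was at 20.8 and 17.9 against 16.3 and 18.3 CPM in LNCaP (−0.16 ± 0.12) and 9.65 and 9.99 against 9.33 and 8.02 in PC3 (−0.18 ± 0.13). Neither ZFAS1 change passed the threshold, and its LNCaP libraries overlapped. SNHG4, SNHG5, SNHG8, SNHG10, SNHG11, SNHG21, SNHG25, SNHG26 and SNHG27 were likewise called in neither line, with log2 fold changes between −0.60 and 0.44 in LNCaP and between −0.50 and 1.13 in PC3.

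**Figure D2:**
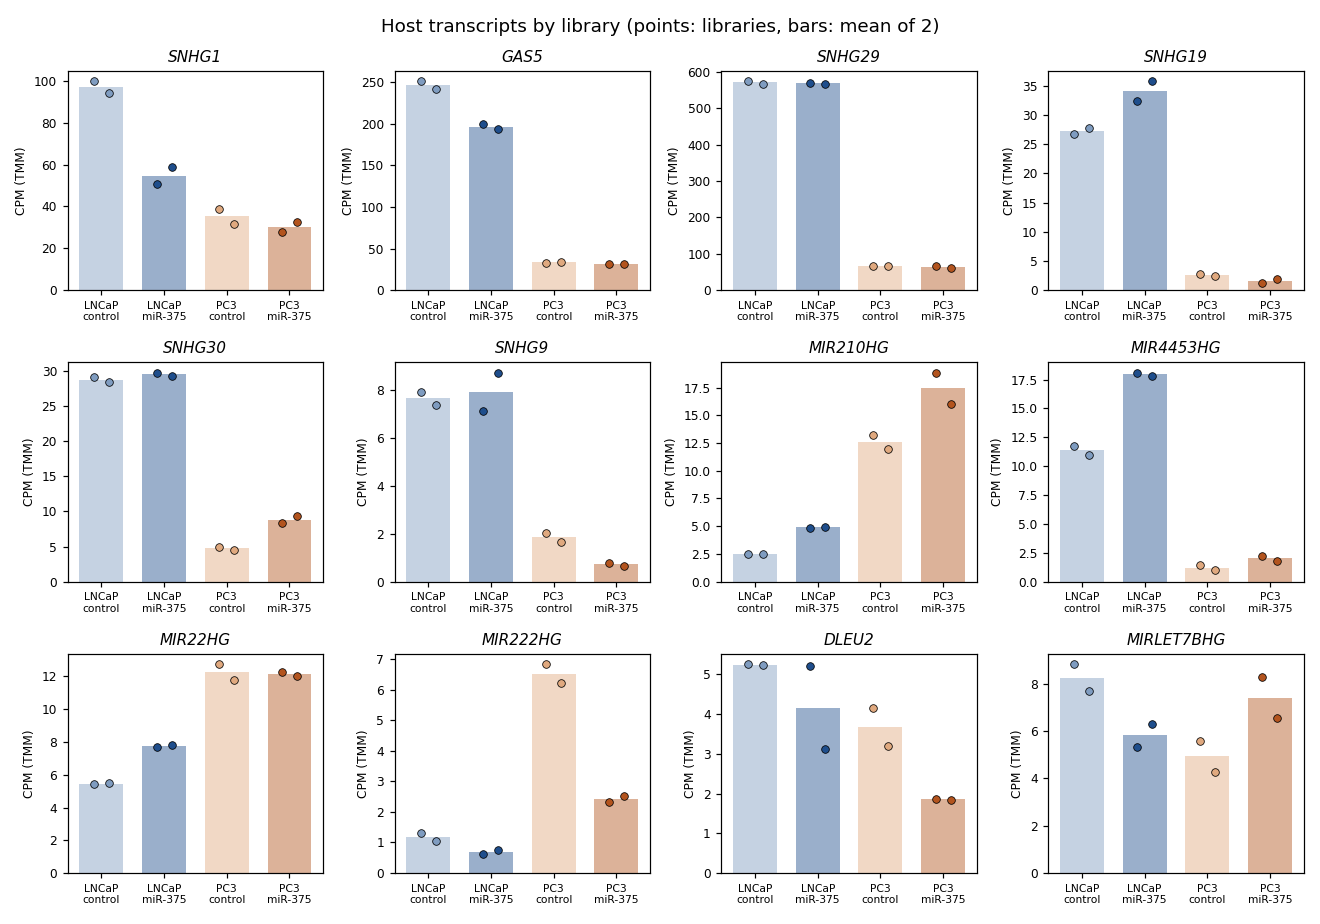
CPM in each library (points) and the mean of the 2 libraries (bars, axes from 0) for 12 host transcripts in the 4 groups. SNHG1 drops from 94.39 and 99.95 to 50.5 and 59.1 CPM in LNCaP, SNHG29 stays at 566 to 574 CPM there, and MIR210HG and MIR4453HG are higher with miR-375 in both lines.

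Among the microRNA hosts, 5 rose and 2 fell in LNCaP of 35 tested, and 9 rose and 8 fell in PC3. The members that rose in both lines were MIR210HG and MIR4453HG. MIR210HG hosts miR-210, a microRNA known to be induced by hypoxia. It went from 2.45 and 2.52 to 4.88 and 4.95 CPM in LNCaP (0.98 ± 0.18, adjusted p = 2.42e-05) and from 13.2 and 11.96 to 18.9 and 16.0 in PC3 (0.47 ± 0.13, adjusted p = 0.00259). MIR4453HG went from 11.72 and 10.99 to 18.1 and 17.8 CPM in LNCaP (0.66 ± 0.14, adjusted p = 0.000312) and from 1.40 and 0.960 to 2.24 and 1.78 in PC3 (0.76 ± 0.23, adjusted p = 0.00710). The miR-375 libraries of both genes lay above the controls in each line, and neither gene differed between the lines by the test (adjusted p = 0.0836 and 0.871). In PC3 the MIR4453HG call was lost with limma-voom (adjusted p = 0.0507) and with each line fitted alone (0.0672). The PC3 calls ended without PC3 miR-375 library 1 (MIR210HG 0.0899, MIR4453HG 0.103), and that of MIR4453HG also without PC3 control library 2 (0.144).

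MIR22HG, which carries miR-22 in an exon, rose in LNCaP from 5.41 and 5.50 to 7.67 and 7.83 CPM (0.51 ± 0.15, adjusted p = 0.00599). In PC3 it was 12.7 and 11.8 against 12.28 and 12.05 CPM (−0.01 ± 0.13, adjusted p = 0.985). MIRLET7BHG, the host of let-7a and let-7b, moved in opposite directions, from 8.82 and 7.67 to 5.31 and 6.31 CPM in LNCaP (−0.50 ± 0.17, adjusted p = 0.0228) and from 5.59 and 4.28 to 8.26 and 6.55 in PC3 (0.58 ± 0.17, adjusted p = 0.00605). Its difference between the lines was −1.09 ± 0.25 (adjusted p = 0.000768). The LNCaP fall of MIRLET7BHG was not called with total-count scaling (0.0891), with DESeq2 (0.105) or without either LNCaP control or the first LNCaP miR-375 library (0.0525 to 0.298), and the PC3 rise was not called without PC3 control library 2 (0.131) or PC3 miR-375 library 1 (0.138). The difference was called under every alternative run.

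In PC3 the host of miR-221 and miR-222 fell most among members above 5 CPM. MIR222HG went from 6.84 and 6.23 to 2.33 and 2.51 CPM (−1.43 ± 0.24, adjusted p = 4.29e-06). In LNCaP it was 1.30 and 1.06 against 0.623 and 0.747 CPM (−0.78 ± 0.34, adjusted p = 0.0737), lower in both miR-375 libraries but short of the threshold, and the lines did not differ by the test (0.65 ± 0.42, adjusted p = 0.282). DLEU2, from the chromosome 13 region deleted in chronic lymphocytic leukaemia and host of miR-15a and miR-16, fell in PC3 from 4.17 and 3.19 to 1.86 and 1.85 CPM (−0.99 ± 0.25, adjusted p = 0.00127). In LNCaP it was 5.26 and 5.24 against 5.20 and 3.13 CPM (−0.33 ± 0.23, adjusted p = 0.302), with the second miR-375 library standing apart from the first. MIR503HG fell in PC3 from 4.47 and 3.99 to 2.79 and 2.02 CPM (−0.82 ± 0.29), MIR31HG from 9.95 and 11.2 to 7.71 and 7.21 (−0.50 ± 0.18), and MIR924HG from 2.00 and 3.40 to 1.07 and 1.11 (−1.30 ± 0.35). Leaving out single PC3 libraries ended these last 3 calls. With DESeq2, MIR503HG (adjusted p = 0.0952) and MIR31HG (0.0971) were not called either. MIR31HG was also not called with total-count scaling (0.0549).

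MIR193BHG, which carries miR-193b and miR-365a, rose in PC3. It went from 0.649 and 0.156 to 1.29 and 1.99 CPM (2.01 ± 0.41, adjusted p = 8.71e-05) and in LNCaP it was 2.81 and 2.92 against 4.25 and 4.01 (0.53 ± 0.30, adjusted p = 0.202). The difference was −1.48 ± 0.51 (adjusted p = 0.0287). MIR1915HG went from 4.34 and 4.88 to 9.14 and 7.52 CPM in PC3 (0.85 ± 0.21, adjusted p = 0.00100) and MIR100HG from 77.76 and 75.04 to 101 and 101 (0.40 ± 0.06, adjusted p = 5.53e-07). MIR34AHG, host of the p53-induced miR-34a, went from 1.25 and 1.04 to 2.33 and 1.54 CPM (0.76 ± 0.27, adjusted p = 0.0233), a call lost without PC3 control library 2 (0.138) or PC3 miR-375 library 1 (0.340). In LNCaP MIR34AHG was 7.19 and 8.59 against 6.75 and 9.30 CPM (0.02 ± 0.20). Its PC3 call was also lost with DESeq2 (adjusted p = 0.0534), limma-voom (0.114) and each line fitted alone (0.0764).

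MIR4435-2HG has a near-identical copy, CYTOR, so counts of both are uncertain where reads match each. It fell in PC3 from 39.5 and 41.8 to 29.02 and 30.41 CPM (−0.45 ± 0.10, adjusted p = 0.000156), and CYTOR fell there from 14.2 and 12.3 to 9.31 and 8.16 (−0.61 ± 0.15, adjusted p = 0.00110). In LNCaP MIR4435-2HG was at trace level, 0.423 and 0.200 against 0.542 and 0.720 CPM, and its called rise (1.02 ± 0.39, adjusted p = 0.0407) was lost under 5 of 15 alternatives. CYTOR in LNCaP was 2.23 and 2.72 against 2.25 and 2.66 CPM.

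Several calls rested on a handful of counts. MIR137HG fell in both lines, from 6 and 6 counts to 0 and 0 in LNCaP, at least 2.15-fold lower at a floor of 3 counts per library, and from 1.52 and 0.960 to 0.452 and 0.403 CPM in PC3 (−1.53 ± 0.59, adjusted p = 0.0337). In PC3 it was not called with DESeq2 (adjusted p = 0.111) or with the replicate block (0.0582). The PC3 call of MIR137HG ended without PC3 control library 1 (0.279) or either PC3 miR-375 library (0.0853 and 0.118). MIR4500HG went from 0 and 0 to 4 and 4 counts in LNCaP, at least 1.24-fold higher, and MIR4458HG from 0 and 0 to 4 and 6 counts in PC3, at least 1.56-fold higher. MIR2052HG was at 0.0499 and 0.0519 CPM in the PC3 controls and 0.476 and 0.949 with miR-375, and MIR1-1HG at 0.998 and 0.519 and then 0.286 and 0.0237. With DESeq2, MIR1-1HG was not called (adjusted p = 0.181). Leaving out 1 library ended the calls of MIR4500HG (up to 0.121), MIR2052HG (0.0900) and MIR1-1HG (up to 0.328). These 5 genes are in the counts of called members above.

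MIR17HG, the precursor of the miR-17-92 polycistron and a known target of MYC, was called in neither line. It was 2.51 and 2.38 against 1.30 and 1.69 CPM in LNCaP (−0.71 ± 0.39, adjusted p = 0.173), with both miR-375 libraries below both controls, and 0.549 and 0.259 against 0.4999 and 0.2846 in PC3 (−0.05 ± 0.51). MIR99AHG, the LNCaP paralogue of MIR100HG, was 22.6 and 23.5 against 25.5 and 24.2 CPM in LNCaP (0.11 ± 0.13). The other microRNA hosts called in neither line and above 1 CPM were MIR29B2CHG, MIR3681HG, MIR3936HG, MIR3142HG, MIRLET7A1HG, MIR600HG, MIR200CHG, MIR762HG, MIR646HG and MIR548XHG.

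Over both kinds of host, 4 members changed the same way in the 2 lines (MIR4453HG and MIR210HG up, SNHG14 and MIR137HG down), 3 changed in opposite ways (SNHG19, MIRLET7BHG, MIR4435-2HG), 8 passed in LNCaP and 20 in PC3 without passing in the other line, and 28 passed in neither. Passing in one line is not a difference between lines, and that difference was tested for every member. It was called for 15 (23.8% of those tested), against 26.5% of all genes. The signed log2 fold change was higher in LNCaP for 6 and higher in PC3 for 9, which does not say which line moved more. Of these 15, 10 were snoRNA hosts (35.7% of 28 tested) and 5 were microRNA hosts (14.3% of 35 tested). SNHG1, SNHG9, SNHG16, SNHG19, SNHG30 and MIRLET7BHG kept the call under all 14 alternatives, and the other 9 lost it under at least 1. The highest adjusted p with 1 library left out was 0.347 for GAS5, 0.201 for SNHG3, 0.144 for SNHG7, 0.133 for MIR22HG, 0.287 for MIR193BHG, 0.106 for SNHG6, 0.0707 for MIR4435-2HG, 0.0649 for SNHG32 and 0.0547 for MIR4458HG.

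**Figure D3:**
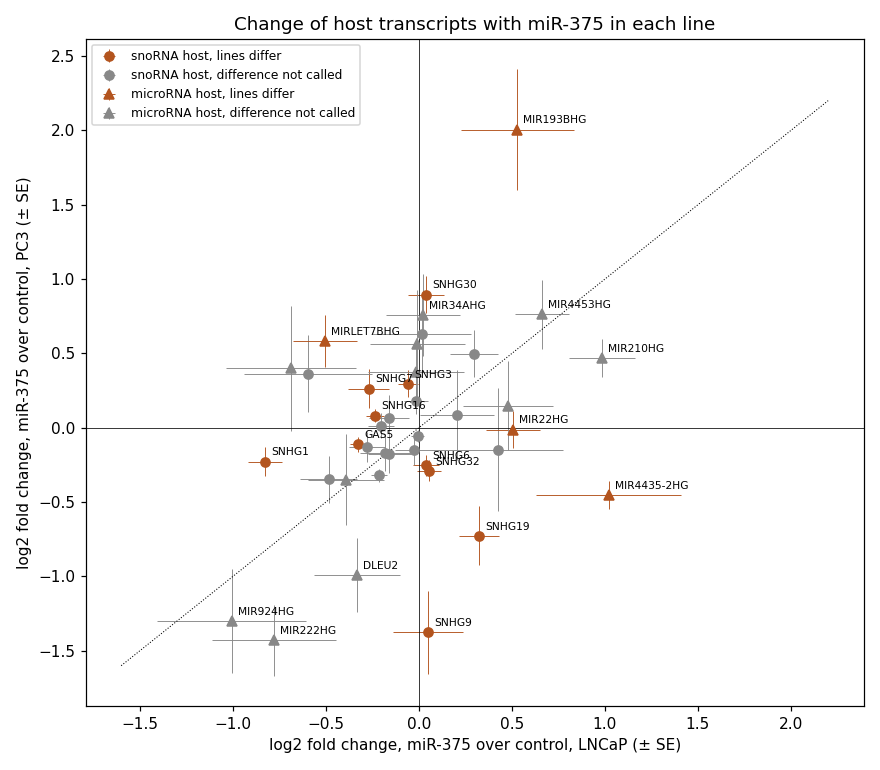
Log2 fold change of miR-375 over control in LNCaP (horizontal) and PC3 (vertical), each ± SE, for the 40 host transcripts with a group mean of at least 0.5 CPM in both lines; the dotted line marks equal change. Orange points are members whose change differed between the lines, among them SNHG9 (0.05 and −1.38), SNHG30 (0.04 and 0.90) and SNHG1 (−0.83 and −0.23), and MIR210HG and MIR4453HG lie in the upper right.

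A run of pyrimidines at the start of a transcript is the sequence feature that snoRNA hosts are known to share with ribosomal protein genes. RefSeq start sites (GRCh38.p14) were found for 24 of the snoRNA hosts. A run of at least 6 C or T bases on the transcript's strand that reached within 5 bases of the start was present at 16 of 24 (66.7%), at 16 of 49 starts of microRNA hosts (32.7%), at 23.1% of all 35116 RefSeq starts and at 73.3% of the starts of ribosomal protein genes. Shown are 40 bases, the 20 before and the 20 from the start, of members described above, with the longest run near the start in capitals. The first 6 have a run of at least 6 and the last 2 do not.
SNHG1: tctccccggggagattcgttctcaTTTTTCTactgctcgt
SNHG12: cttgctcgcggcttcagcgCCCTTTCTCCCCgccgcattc
SNHG16: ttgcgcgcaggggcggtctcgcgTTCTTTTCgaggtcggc
SNHG19: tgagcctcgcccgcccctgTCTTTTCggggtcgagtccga
SNHG32: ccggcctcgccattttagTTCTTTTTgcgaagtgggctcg
ZFAS1: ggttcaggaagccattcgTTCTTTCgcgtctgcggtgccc
SNHG20: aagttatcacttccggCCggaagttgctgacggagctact
SNHG30: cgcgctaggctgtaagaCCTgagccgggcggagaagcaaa

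The window of SNHG1 is chr11:62855866-62855905 on the minus strand, that of SNHG19 chr16:2155339-2155378 on the minus strand and that of SNHG30 chr17:35568094-35568133 on the plus strand. Among the 16 snoRNA hosts with a run, 1 rose and 5 fell in LNCaP and 3 rose and 3 fell in PC3. Among the 8 without, 0 rose and 1 fell (GAS5) in LNCaP and 2 rose and 0 fell in PC3 (SNHG20 and SNHG30). Over all genes tested, 13.9% rose and 18.7% fell in LNCaP, and 22.2% rose and 20.8% fell in PC3. The medians with a run were −0.11 in LNCaP and −0.09 in PC3, and without one 0.12 and 0.23. For 4 of the 24 (GAS5, SNHG3, SNHG14 and SNHG27) the window lay wholly upstream of the GENCODE v29 model used elsewhere here, for GAS5 with a start 163 bases upstream, so their class holds for the RefSeq start alone. These are descriptions of small sets. The split by run was not repeated with total-count scaling. That scaling turned the LNCaP split of all snoRNA hosts from 1 that rose and 7 that fell to 4 and 2. A run is a match of letters at an annotated start, and its absence says only that the letters are not in this window.

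The match to the miR-375 seed, CGAACAA, was searched on the sense strand of all annotated transcripts (GENCODE v29). It was present in 1 of the 63 tested members (1.59%), against 4.84% of all tested genes and 2.37% of those not protein coding. That member was SNHG17, host of the SNORA71 family, on chromosome 20. The match was in 1 of its 8 annotated transcripts and not in the longest, of 2138 bases. The site starts at base 1426 of a transcript of 2102 bases. It is shown with 11 and 12 flanking bases and the match in capitals.
SNHG17: atcagtaatgtCGAACAAatggagaaagtt

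SNHG17 was 32.9 and 31.7 CPM in the LNCaP controls and 23.6 and 29.7 with miR-375 (−0.28 ± 0.10, adjusted p = 0.0220). In PC3 it was 21.9 and 19.3 against 19.5 and 18.2 CPM (−0.13 ± 0.10, adjusted p = 0.319). The LNCaP call was lost without LNCaP miR-375 library 1 (0.719) and under 5 other alternatives, and a match in a transcript is not evidence of binding. The other 14 called members in LNCaP and all 27 in PC3 had no such match.

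The libraries were strand-marked, but the sources used here do not give the strand setting of the counting, so reads of overlapping genes may not be separable. On GENCODE v29, 31 of the 68 members shared exon bases with another gene. Genes of snoRNAs, Cajal body RNAs and microRNAs were not counted in these overlaps. The share of a member's exon bases was highest for MIRLET7A1HG (78.8%), SNHG21 (72.9%), MIR762HG (56.4%), MIR497HG (44.0%) and ZFAS1 (42.9%). For several members the overlapping gene was more abundant than the member itself. RCC1 overlaps SNHG3 on the same strand over 242 bases and fell in LNCaP (−1.11, adjusted p = 3.11e-20) and PC3 (−0.30, adjusted p = 5.17e-06), whereas SNHG3 was −0.06 and 0.30. UBE3A, which averaged 96.3 CPM and was less abundant than SNHG14, lies opposite it over 198 bases. UBE3A fell with SNHG14 in both lines (−0.51 and −0.44). SEC14L1 overlaps SNHG20 on the same strand and rose in LNCaP (0.36) and fell in PC3 (−0.43), where SNHG20 rose.

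TRIM13, opposite DLEU2, rose in PC3 (0.36, adjusted p = 0.00356) where DLEU2 fell. BCL2L11, opposite MIR4435-2HG, fell in LNCaP (−0.27) and rose in PC3 (0.77), in each line against the direction of MIR4435-2HG. FAM69B, opposite SNHG7, rose in PC3 (0.45), and ZNFX1, opposite ZFAS1, fell in LNCaP (−0.44). DPYD, on the strand of MIR137HG, fell with it in PC3 (−0.61). LNCTAM34A, opposite MIR34AHG, averaged 2.09 CPM over all libraries and rose with it in PC3 (5.38). LNCTAM34A also rose in LNCaP (0.93, adjusted p = 0.0145), where MIR34AHG was not called. MCMDC2 shares 29.3% of the exon bases of SNHG6 but averaged 0.632 CPM. With snoRNA and microRNA genes left out, SNHG1, SNHG9, SNHG19, MIR210HG, MIR4453HG, MIR22HG, MIR222HG and MIR193BHG shared no exon bases with another annotated gene. In SNHG1, SNHG9, MIR4453HG and MIR22HG, small RNA genes such as SNORD22, SNORA78, MIR4453 and MIR22 overlap an exon of some annotated transcript. Such an overlap does not say that the small RNA is exonic in every transcript of its host.

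**Figure D4:**
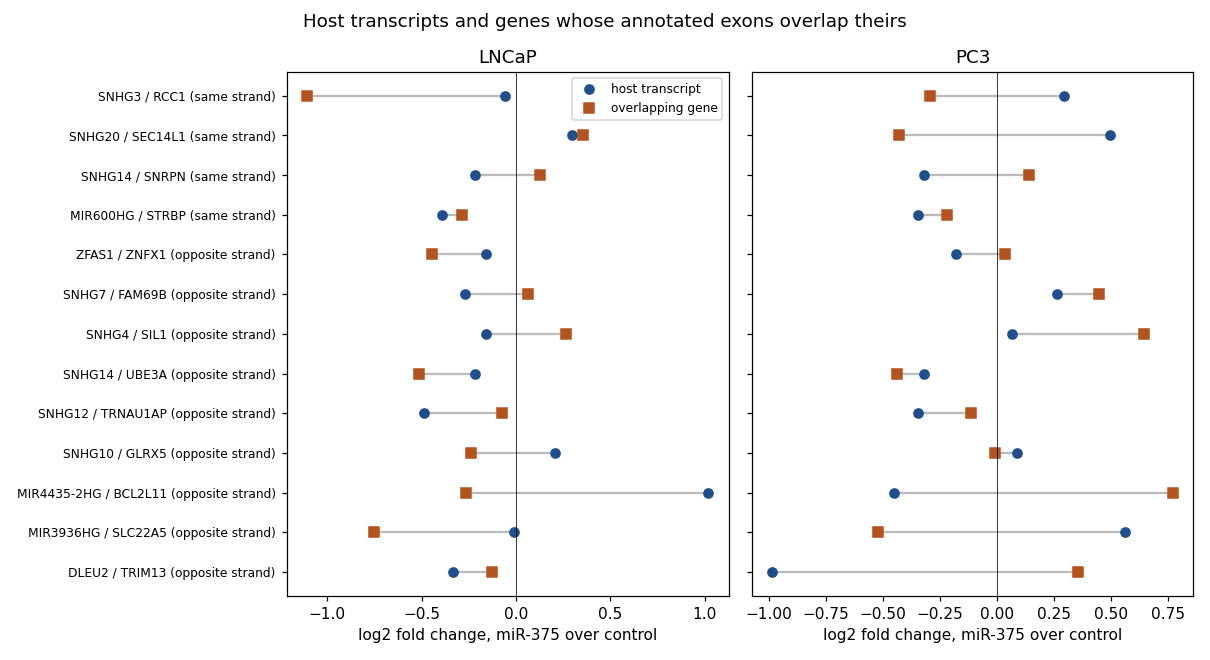
Log2 fold change of miR-375 over control in LNCaP (left) and PC3 (right) for 13 pairs of a host transcript (circle) and a gene whose annotated exons overlap it (square, at least 5 CPM on average). In PC3, DLEU2 and TRIM13, SNHG20 and SEC14L1, and SNHG3 and RCC1 lie on opposite sides of 0.

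The snoRNAs themselves were hardly seen. Poly(A) libraries do not select them, and many overlap an exon of some annotated transcript of their host, where reads may not be separable. The part of either was not tested. Of 140 rows of snoRNAs lying inside members, 15 had any count and 4 were tested. Those with a count lay in introns of their hosts, except SNORD7 in SNHG30, with 1 count in all. SNORD104 in SNHG25 had 54 and 62 counts in the LNCaP controls against 55 and 83 with miR-375, and 34 and 24 against 14 and 30 in PC3. Neither this row nor SNORA73B, SNORD99 or SNORA71B was called in either line.

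The counts over related gene lists stand beside those over all genes, of which 13.9% rose and 18.7% fell in LNCaP and 22.2% rose and 20.8% fell in PC3. Of 12 tested box C/D proteins and assembly factors, 0 rose and 10 fell in LNCaP (median −0.35), and 2 rose and 6 fell in PC3 (median −0.15). FBL, the methyltransferase of box C/D particles, went from 431 and 432 to 308 and 311 CPM in LNCaP (−0.48 ± 0.04) and from 120.2 and 128 to 151 and 146 in PC3 (0.26 ± 0.04). Of 9 box H/ACA proteins and assembly factors, 1 rose and 8 fell in LNCaP (median −0.43), and 2 rose and 3 fell in PC3 (median −0.05). In LNCaP, TCOF1 fell most (−0.81 ± 0.06) and NOP10 rose (0.14 ± 0.05), and in PC3, NOLC1 rose most (0.79 ± 0.04) and GAR1 fell most (−0.65 ± 0.07). With total-count scaling 8 box C/D genes fell and 0 rose in LNCaP, 5 box H/ACA genes fell and 1 rose there, 4 box C/D genes fell and 2 rose in PC3 (median −0.07), and the PC3 median of the H/ACA group was 0.03.

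Protein-coding genes that host snoRNAs in their introns had 0 rises and 31 falls of 38 in LNCaP (median −0.23) and 7 rises and 21 falls in PC3 (median −0.17), and under total-count scaling 19 falls with 2 rises in LNCaP (median −0.11) and 18 with 8 in PC3 (median −0.09). RCC1 fell most in LNCaP. In PC3, RPL12, a ribosomal protein gene, rose most (0.38 ± 0.03) and HSPA9, a mitochondrial chaperone gene, fell most (−0.55 ± 0.04). Protein-coding microRNA hosts had 6 rises and 17 falls of 40 in LNCaP and 11 and 13 in PC3, with medians of −0.02 and 0.03, and under total-count scaling 8 rises and 12 falls in LNCaP (median 0.08) and 15 and 12 in PC3 (median 0.10). The genes named from the lists had at least 5 CPM in a group. MCM7, a replication helicase gene that hosts the miR-106b cluster, fell most in LNCaP (−1.33 ± 0.04), and SKA2, a kinetochore gene that hosts miR-301a, fell most in PC3 (−1.58 ± 0.06). EGFL7, the host of miR-126, rose most in PC3 among those at 5 CPM or more, from 8.23 and 7.47 to 16.8 and 16.0 CPM (1.06 ± 0.09).

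Of 20 factors of nonsense-mediated decay, 2 rose and 11 fell in LNCaP (median −0.17) and 5 rose and 7 fell in PC3 (median −0.00072). Under total-count scaling these were 3 and 8 in LNCaP (median −0.05) and 7 and 4 in PC3 (median 0.08). DCP2, a decapping enzyme, fell most in LNCaP (−0.52 ± 0.06), and PNRC2 rose most in both lines (0.37 ± 0.04 and 0.68 ± 0.04). Reported targets of that decay had 3 rises and 8 falls of 16 in LNCaP (median −0.13) and 2 and 7 in PC3 (median −0.08), and 4 and 7 (−0.01) and 2 and 6 (−0.01) under total-count scaling. Of 22 genes of microRNA processing, 3 rose and 12 fell in LNCaP (median −0.19) and 4 rose and 11 fell in PC3 (median −0.13). Total-count scaling gave 5 and 9 (−0.07) and 6 and 10 (−0.05), and DESeq2 gave 1 and 12 in PC3. DICER1, which cuts hairpin precursors, rose in LNCaP (0.27 ± 0.06), and TARBP2, its partner, fell most in PC3 (−0.67 ± 0.07). Long non-coding RNAs outside the name rule had 1 rise and 4 falls of 18 in LNCaP (median −0.09) and 7 rises and 3 falls in PC3 (median 0.27). Under total-count scaling the LNCaP split was 2 and 2 with a median of 0.04, and that in PC3 8 and 2 with a median of 0.35. OIP5-AS1 fell most in LNCaP (−0.42 ± 0.04). DANCR, also a snoRNA host though not named as one, rose in PC3 from 17.2 and 17.0 to 28.4 and 27.4 CPM (0.70 ± 0.06).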

How the data were processed

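Poly(A) RNA-seq of 8 libraries was analysed. Values are whole-number read counts per gene, not normalized, which the authors deposited as 1 table. The build hg38 and the tools STAR 2.7.1a, fastp, DESeq2 and featureCounts are named per the submitters' processing notes. The sources used here give neither what each did nor the annotation or strand setting. Of counts from 1 to 20, between 68.1% and 70.3% per library were even, and whether a read or a pair was counted is not stated. Of 60625 gene lines, 3 were broken and left out. Counts were fitted with edgeR 4.0.16 in R 4.3.3 (TMM, filterByExpr by group, 4 groups in 1 model, glmQLFit with robust estimation, glmQLFTest). Tested were the miR-375 effect in LNCaP, that in PC3, the difference of both, and the control libraries of the 2 lines. SE is the size of the log2 fold change divided by the square root of F. Alternatives were total-count scaling, DESeq2 1.42.0, limma-voom (limma 3.58.1), no low-count filter, a replicate block, each line alone, halved counts and leaving out each library. A count of 0 was limited at 3 counts, for counting error only, as no molecular identifiers tell copies of a molecule apart. Gene models, overlaps and transcripts came from GENCODE v29, and sequences from RefSeq. Members and gene lists were chosen with earlier results of these data known. Named members were those called in both lines or in the difference, those called in 1 line at 1.5-fold or more, the most abundant, and MIR17HG, DLEU2, MIR22HG, GAS5, SNHG1 and ZFAS1. From each list at most the largest called rise and fall at 5 CPM or more were named, and FBL, DANCR and CYTOR were added after their values were seen. Other members called in 1 line at under 1.5-fold, such as SNHG12, SNHG15, SNHG18, SNHG20 and MIR31HG, and uncalled members are also given values, likewise chosen after these were seen. One gene that overlaps a member is not reported here.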

Additional observations from a re-analysis of the deposited data

Results flagged for a closer look

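For 15 host transcripts the change with miR-375 differed between LNCaP and PC3 by the test of the difference itself (edgeR's quasi-likelihood test, adjusted p under 0.05); values are the LNCaP log2 fold change minus that in PC3. The signed log2 fold change was higher in PC3 for SNHG30 (−0.86), SNHG16 (−0.32), MIRLET7BHG (−1.09), SNHG1 (−0.60), SNHG3 (−0.35), GAS5 (−0.22), SNHG7 (−0.53), MIR193BHG (−1.48) and MIR4458HG. For MIR4458HG the fitted −5.17 comes from 0 and 0 against 4 and 6 counts in PC3 and depends on the prior count. The signed log2 fold change was higher in LNCaP for SNHG19 (1.05), SNHG9 (1.43), MIR4435-2HG (1.47), SNHG32 (0.34), SNHG6 (0.29) and MIR22HG (0.52). A higher signed value does not name the line that moved more. SNHG1 was −0.83 in LNCaP and −0.23 in PC3, and SNHG9 was 0.05 in LNCaP and −1.38 in PC3. MIR4435-2HG was at trace level in LNCaP.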

How the results depend on the processing

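No called member reversed its direction under any alternative. In LNCaP 6 of 15 calls held under every alternative that gave them an adjusted p (GAS5, MIR137HG, MIR210HG, MIR22HG, MIR4453HG, SNHG1), in PC3 11 of 27 (DLEU2, MIR100HG, MIR1915HG, MIR193BHG, MIR222HG, MIR4435-2HG, MIR4458HG, SNHG14, SNHG18, SNHG30, SNHG9), in the difference 6 of 15, and between the controls 54 of 58, all but DLEU2, MIR548XHG, MIR924HG and SNHG11. MIR137HG in LNCaP and MIR4458HG in PC3 had such a value under 14 of the 15 alternatives. The LNCaP count was 9 with DESeq2 (5 rose, 4 fell, of 53 with an adjusted p), 20 with each line fitted alone, and from 7 to 16 leaving out 1 library, with the lowest counts, 7 and 9, without LNCaP control library 2 and without LNCaP miR-375 library 1. The PC3 count was from 19 to 29, that of the difference from 10 to 13 and that of the controls from 54 to 58 leaving out 1 library. With DESeq2 the PC3 split was 12 and 9, and total-count scaling gave 17 and 12. With the replicate block the 4 counts were 15, 25, 14 and 58. Deviations of libraries with the same number correlated by −0.01 to 0.02 over all tested genes. That shows no strong shared effect of the number, but it cannot tell whether such libraries were handled together. With 2 libraries a group, members under about 1 CPM carry few counts, and small changes of them were not detectable at this depth.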
